A study of Bos taurus and Bubalus bubalis with 9 samples.

Results

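The genes described here encode 10 subunits of the mitochondrial respiratory chain and of ATP synthase, all of them encoded in the nucleus: NDUFA1, NDUFB7 and NDUFS1 of complex I, COX5A, COX6C and COX7A1 of complex IV (cytochrome c oxidase), and ATP5A1, ATP5B, ATP5G2 and ATP5G3 of complex V (ATP synthase). They were chosen by name, with earlier results of these data known. For 6 of them the transcript was named through the study's lists of mRNAs that differ between the species, and for 4 through the circRNA tables. Each of the 10 was paired with 1 of the 19917 transcripts in the deposited buffalo mRNA table.

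The study compared Xinyang buffalo, labelled as low in intramuscular fat (IMF), with Nanyang cattle, labelled as high in IMF. The animals of both species were castrates, weaned in month 3 and castrated in month 6. They were slaughtered when 30 months old, after fattening from month 18. The groups used here were the longissimus dorsi muscle of buffalo, the same muscle of cattle and the back subcutaneous fat (adipose) of cattle. Each had 3 libraries, 9 in all, prepared from total RNA with an Illumina TruSeq RNA kit. The labels name 3 buffalo and 3 cattle, so both cattle tissues came from the same animals, but they do not say whether equal library numbers mark 1 animal. The mRNA table gave values for buffalo muscle among these groups, and the circular RNA (circRNA) tables gave values for all of them. No comparison of mRNA levels between species or tissues was therefore made, and cattle mRNA and buffalo adipose tissue were not analysed here.

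The respiratory chain passes electrons from NADH and other carriers through complexes I to IV to oxygen and pumps protons across the inner mitochondrial membrane, and ATP synthase uses the returning protons to make ATP. Most subunits are encoded in the nucleus and imported, while a small core is encoded in the mitochondrial genome. Skeletal muscle fibres differ in their content of mitochondria, and oxidative fibres depend on this pathway for sustained work.

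In buffalo muscle the 10 transcripts were abundant, and they fell into an order that began with ATP synthase (plot of the levels by library). Values are FPKM, which scale fragments by transcript length and by mapped reads, so levels are given per length and can be set side by side between genes. The sum over the table was 1187000, 1000420 and 991636 for buffalo muscle 1 to 3. The table holds no read counts, so the depth behind a single transcript is unknown. As a check of the labelled tissue, the skeletal muscle markers ACTA1 (skeletal actin, ENSBTAT00000006532), MB (myoglobin) and CKM (muscle creatine kinase) had mean FPKM of 37458, 26917 and 8598, while the adipocyte markers ADIPOQ and PLIN1 had 4.65 and 0.870 and the liver marker ALB had 0.524. The transcripts paired with MYH1 and NEB were listed at 0 in each library, although both are genes of muscle fibres.

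ATP5B encodes the catalytic beta subunit of ATP synthase. ATP5B (ENSBTAT00000017710) had the highest level of the 10, with FPKM of 1448, 1701 and 1664 in buffalo muscle 1 to 3, a mean of 1604 ± 137 (SD, n = 3). It ranked 61 among all transcripts. ATP5A1 (ENSBTAT00000003259), for the alpha subunit that alternates with beta in the catalytic head, had FPKM of 764, 883 and 840, a mean of 829 ± 60.2, and ranked 110. Buffalo muscle 1 was the lowest library for both, and the lowest value of ATP5B lay above the highest of ATP5A1.

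ATP5G2 and ATP5G3 encode subunit c, which forms the rotating ring in the membrane. Both genes code for the same mature subunit behind different import sequences. ATP5G3 (ENSBTAT00000003832) had FPKM of 568, 692 and 722, a mean of 661 ± 81.7, and ranked 140. ATP5G2 (ENSBTAT00000007538) had FPKM of 483, 395 and 401, a mean of 426 ± 48.9, and ranked 219. The order of the animals thus differed between these genes, since buffalo muscle 1 was the lowest for ATP5G3 and the highest for ATP5G2. Because the coding sequences of the subunit c genes are alike, reads could have been split between them, and this was not measured.

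Of the complex IV subunits, COX6C and COX5A varied little among the animals in FPKM. COX6C (ENSBTAT00000018778), a small structural subunit, had FPKM of 376.0, 381.7 and 376.3, a mean of 378 ± 3.20 and a coefficient of variation of 0.847%. COX5A (ENSBTAT00000022949), a subunit on the matrix side of the complex, had FPKM of 247.7, 249.6 and 251.0, a mean of 249 ± 1.65 and a coefficient of variation of 0.661%. These were the smallest coefficients among the 10 in FPKM and with median-ratio scaling (2.33% and 2.41%), but with libraries rescaled to an equal sum they were 10.2% and 10.4%, and ATP5G2 had the smallest, 1.52%. COX7A1 (ENSBTAT00000019808), the isoform of subunit VIIa found in heart and skeletal muscle, had FPKM of 282, 259 and 285, a mean of 275 ± 13.9, with buffalo muscle 2 the lowest. No transcript was paired with the name of its widely expressed counterpart COX7A2, so the isoforms could not be set side by side.

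Of the 3 complex I subunits among the 10, NDUFB7 (ENSBTAT00000016768), an accessory subunit of the membrane arm, was the highest, with FPKM of 393, 388 and 366 and a mean of 382 ± 14.1. NDUFS1 (ENSBTAT00000029301), the large core subunit that carries iron-sulphur clusters in the arm where electrons enter, had FPKM of 198, 202 and 189, a mean of 196 ± 6.58. NDUFA1 (ENSBTAT00000007925), a small accessory subunit needed for assembly, had FPKM of 114, 119 and 86.6, a mean of 107 ± 17.5, and was the lowest of the 10. Buffalo muscle 3 was the lowest library for each of these complex I subunits in FPKM, though for NDUFA1 alone once libraries were rescaled to an equal sum. NDUFA1 also had the largest coefficient of variation of the 10 in FPKM, 16.4%, while with an equal sum ATP5G3 (21.3%) and ATP5B (17.7%) exceeded its 16.4%. NDUFA1 ranked 756, with 3.79% of all transcripts above it.

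**Figure D1:**
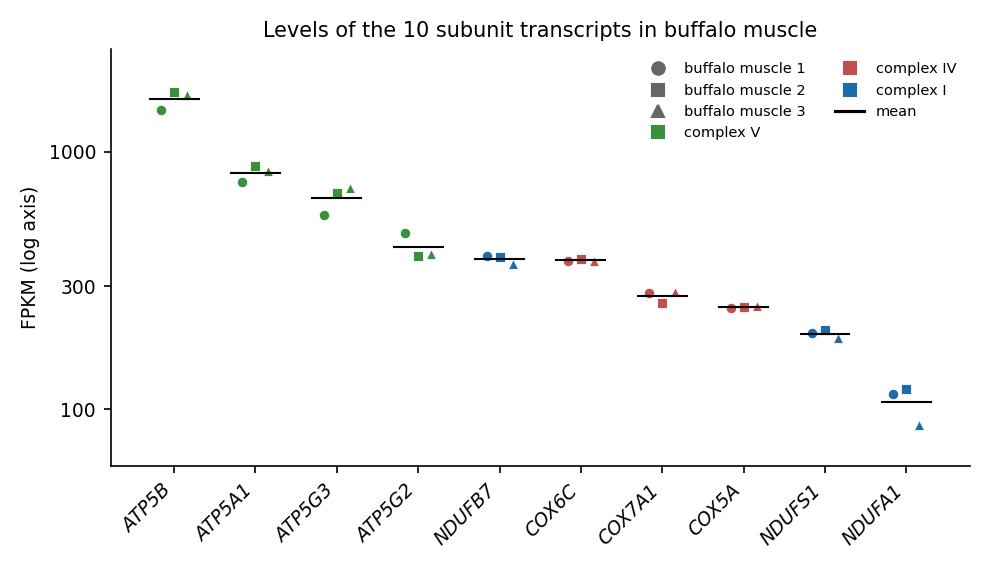
FPKM (log axis) of the 10 subunit transcripts in buffalo muscle 1 to 3, shown as circles, squares and triangles and coloured by complex, with the mean as a line. Levels run from a mean of 1604 for ATP5B to 107 for NDUFA1, and the complex V genes hold the 4 highest places.

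Along the order of the means, 8 of the 9 pairs of neighbours did not overlap among the 3 animals. NDUFB7 and COX6C, with means of 382 and 378, overlapped and could not be ordered. The gap between ATP5G2 and NDUFB7 was narrow, since the lowest ATP5G2 value was 395 and the highest NDUFB7 value 393. When each library was rescaled to an equal sum, 6 of the 9 pairs stayed apart, and ATP5A1 with ATP5G3 and COX7A1 with COX5A then overlapped as well. With median-ratio scaling, which sets libraries to a common level over 16245 transcripts, 8 of the 9 stayed apart as in FPKM. Within each library, a comparison that no scaling can change, the same gene was the higher one in 8 of the 9 pairs.

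The level of the 10 genes stood far above that of a typical transcript. Their median log2(FPKM + 1) was 8.57, beside 1.98 over all listed transcripts and 3.25 over the 12618 with a mean FPKM of at least 1. Together they held 0.411%, 0.527% and 0.522% of the summed FPKM in buffalo muscle 1 to 3. In FPKM their median coefficient of variation was 6.16%, beside 15.2% over the transcripts with a mean FPKM of at least 1 and 11.6% over the 756 transcripts at or above the level of NDUFA1. With an equal sum it was 10.3%, beside 16.7% and 11.2%, so that the members then stood close to the other abundant transcripts. These are descriptions of 3 libraries and were not tested. A gene could be a member only if its transcript was named through the study's lists or the circRNA tables. The level of all transcripts so named was not set beside that of the 10.

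The order of the animals depended on the scale. Buffalo muscle 1 had the largest summed FPKM, while its median-ratio factor was 1.02, beside 0.994 and 0.992 in the other libraries. In FPKM, 5 of the 10 genes were lowest in the first library, 2 in the second and 3 in the third, and median-ratio scaling gave the same counts. After rescaling to an equal sum, 8 of the 10 were lowest in buffalo muscle 1. That scale equals TPM over the 19917 listed transcripts. On it ATP5B had 1220 in buffalo muscle 1 against 1700 and 1678 in the other libraries, and COX5A had 209 against 249 and 253. The adipocyte markers ADIPOQ (0.776, 7.40 and 5.77 FPKM), PLIN1 (0.367, 1.35 and 0.890) and FABP4 (3.97, 8.20 and 7.99) were also lowest in buffalo muscle 1. Their list, of which 5 of 7 genes had a transcript, summed to FPKM of 97.6, 147 and 114, most of it from LPL, which muscle fibres also express. The endothelial markers went both ways, since PECAM1 (34.9, 40.5 and 44.8 FPKM) was lowest and VWF (12.6, 10.3 and 10.4) highest in buffalo muscle 1. The skeletal muscle markers, with 9 of 12 genes, summed to FPKM of 122184, 100073 and 108653, highest in buffalo muscle 1, but with an equal sum they were highest in buffalo muscle 3 (102936, 100032 and 109570). The fibroblast markers, with 4 of 4 genes, summed to FPKM of 694, 634 and 500.3, and with an equal sum they were highest in buffalo muscle 2 (585, 634 and 505). The part of these differences in the values of the 10 genes was not tested.

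Ratios between genes within a library do not depend on that scale (plot of ratios). ATP5B stood at 1.89, 1.93 and 1.98 times ATP5A1 in buffalo muscle 1 to 3, a mean of 1.93 ± 0.0443 (SD, n = 3). Although alpha and beta occur in equal numbers in the enzyme, the transcripts paired with their names were thus unequal in each animal. Buffalo reads had been aligned to the cattle genome, and transcripts without a name were not counted. The part of either in this ratio was not tested. COX6C stood at 1.518, 1.529 and 1.499 times COX5A, the ratio with the smallest SD among the 45 pairs of the 10 genes, 0.0152. NDUFB7 stood at 1.98, 1.92 and 1.94 times NDUFS1, a mean of 1.95 ± 0.0311. These ratios differed little among the animals.

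Other ratios within a complex were less even. In buffalo muscle 1, ATP5G3 stood at 1.18 times ATP5G2, and the ratio was 1.75 and 1.80 in buffalo muscle 2 and 3. The ratio of NDUFS1 to NDUFA1 was 1.74, 1.69 and 2.18, highest in buffalo muscle 3. COX7A1 stood at 1.14, 1.04 and 1.13 times COX5A. The values of ATP5G3 over ATP5G2 in buffalo muscle 1 and of NDUFS1 over NDUFA1 in buffalo muscle 3 lay apart from those of the other two animals.

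**Figure D2:**
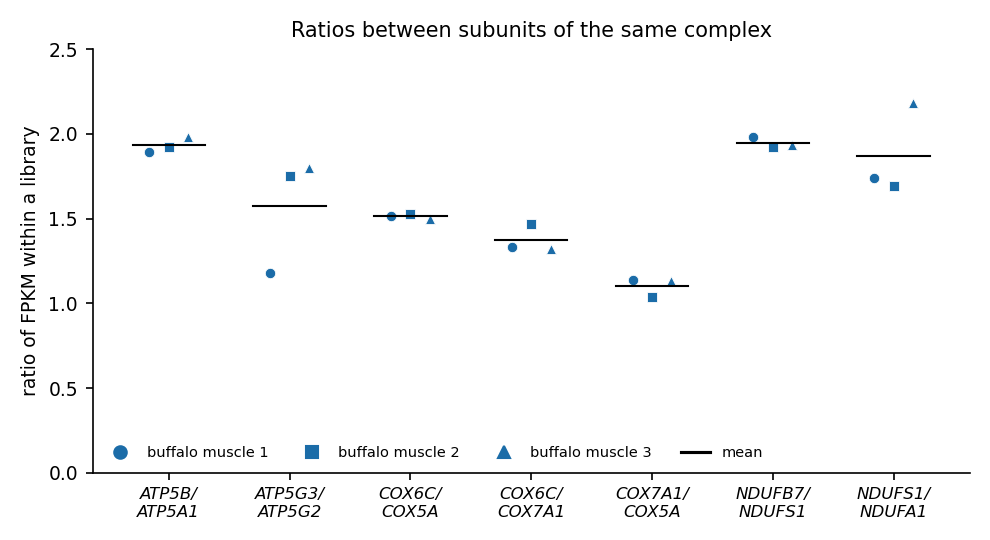
Ratio of FPKM between subunits of the same complex, computed within buffalo muscle 1 to 3 (circles, squares and triangles), with the mean as a line. ATP5B over ATP5A1 and COX6C over COX5A are nearly the same in the 3 animals, while ATP5G3 over ATP5G2 runs from 1.18 to 1.80.

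The 10 genes were then set beside the other subunits of the chain from a list of 81 nuclear genes. A transcript could be paired with a name for 21 of the 81, the 10 genes included. Of these pairings, 13 came from the study's lists of mRNAs differing between the species and 8 from the circRNA tables, so the 21 are no even sample of the chain. All 21 ranked 1015 or higher, and their median log2(FPKM + 1) was 8.11. For complex I, 11 of 37 genes had a transcript, with a median of 7.75 and a range from NDUFA10 at 6.29 ± 0.26 (SD, n = 3) to NDUFS7 at 8.71 ± 0.10. NDUFS7 carries the cluster that hands electrons to ubiquinone. NDUFB7 ranked second among these 11 subunits, NDUFS1 lay just below their median and NDUFA1 was lower than all but NDUFA10.

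For complex III, which hands electrons from ubiquinol to cytochrome c, 3 of 9 genes had a transcript. UQCRQ, a small subunit of the complex, had FPKM of 786, 919 and 842 and was at the level of ATP5A1, with overlapping values. UQCRC2, a core subunit, was the lowest of the 3, with FPKM of 201, 236 and 215. For complex IV the 3 of 15 genes with a transcript were COX5A, COX6C and COX7A1 themselves, and for complex V the 4 of 16 were ATP5A1, ATP5B, ATP5G2 and ATP5G3. None of the 4 genes of complex II had a paired transcript. The median was highest for complex V, 9.53, beside 8.05 for complex III and 8.11 for complex IV.

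The subunits encoded in the mitochondrial genome that could be named were lower than the nuclear ones. Of 13 such genes, 4 had a transcript, each named through the study's lists of mRNAs differing between the species, and they ranked 3431 (ND1), 11693 (COX1), 11766 (COX3) and 14917 (ND2). COX1, the catalytic core of the same enzyme as COX5A, COX6C and COX7A1, had FPKM of 1.70, 1.06 and 1.90, and COX3, another core subunit, had 2.28, 1.22 and 1.01. ND2 of complex I had 0.438, 0.0703 and 0.233. ND1 of complex I had 1.07 and 1.04 in buffalo muscle 1 and 3 and 58.8 in buffalo muscle 2. Each nuclear subunit exceeded each of these in all 3 libraries. Buffalo reads had been aligned to the cattle genome, and its part in the low values of the mitochondrial genes was not tested.

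**Figure D3:**
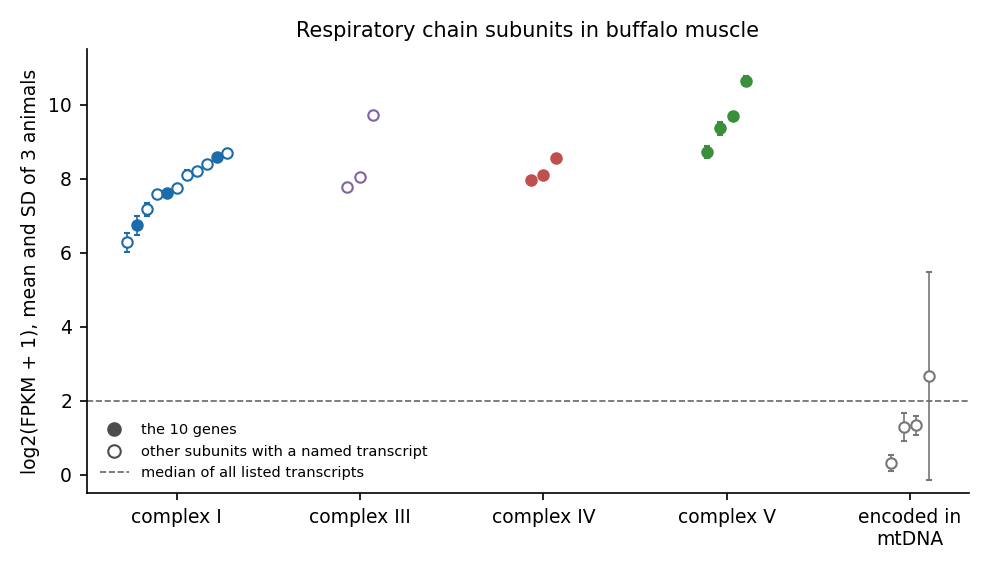
Mean log2(FPKM + 1) with SD over 3 buffalo muscle libraries for each respiratory chain subunit with a named transcript, by complex and for genes encoded in mitochondrial DNA (mtDNA). Filled points are the 10 genes, open points other subunits, and the dashed line is the median of all listed transcripts, 1.98. All nuclear subunits lie above 6 and 3 of the 4 mitochondrial ones lie below the line.

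The circRNA tables gave a second readout of the same genes, in all 3 groups. A circRNA is a closed loop made when a splice donor joins an upstream acceptor, and it was counted by reads across that back-splice junction, given as RPM, junction reads scaled to the total reads of the library. RPM values were whole multiples of the value of 1 read, so reads could be recovered. Libraries held between 4472 and 6122 junction reads in buffalo muscle, 15440 and 27141 in cattle muscle, and 12042 and 21053 in cattle adipose tissue. In the cattle table, 4 of the 10 genes (ATP5A1, ATP5B, ATP5G2 and NDUFS1) were hosts of 6 junctions with 48 reads in all, and 6 had none. These 4 are also the genes whose names came from the circRNA tables, so that they were found among circRNA hosts, and the count is a description. In buffalo muscle, NDUFS1 was the single host, with 2 junctions and 4 reads. The part of the library preparation in these low counts was not tested. The limits that 0 reads allow, given below, cover counting error only.

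The junction with most reads belonged to NDUFS1 on chromosome 2 of UMD3.1, from 94901680 to 94909744 on the minus strand, an exonic circRNA spanning 8065 bp of the gene. Cattle muscle 1 to 3 held 6, 13 and 3 reads of it, which is 0.159, 0.308 and 0.0840 RPM. Cattle adipose 1 to 3 held 4, 6 and 3 reads, which is 0.109, 0.161 and 0.0772 RPM. The tissues overlapped, with means of 0.183 ± 0.114 and 0.116 ± 0.0425 RPM (SD, n = 3). In the comparison of cattle muscle with cattle adipose tissue over 1917 circRNAs, limma called 65 of them, a background of 3.39%. In muscle, 3.18% (61) were called higher and 0.209% (4) lower. The split depended on the method, with 137 higher and 26 lower by edgeR with TMM, and 105 and 18 by limma with libraries blocked by number. With 1 library left out, limma called between 20 and 87. The NDUFS1 junction was the only one of the 6 to pass the filter on low reads, and it was not called, nor was its unadjusted p under 0.05. Its difference was 0.08 on the log2(RPM + 1) scale (muscle minus adipose; 95% interval -0.12 to 0.28; limma adjusted p = 0.729), and 0.01 without cattle muscle 2. The pseudocount of 1 RPM is larger than each value of the junction and shrinks the difference of 0.08, which was 0.34 with a pseudocount of 0.1. Unadjusted, its limma p was 0.414, and edgeR and DESeq2 on the recovered reads gave log2 fold changes of 0.68 and 0.70 and did not call it either (adjusted p = 0.812 and 0.809).

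The same NDUFS1 junction, with identical coordinates, was found in buffalo muscle 2 with 3 reads, 0.0471 RPM. It was not detected in buffalo muscle 1 and 3, where 0 reads allow up to 0.0456 and 0.04999 RPM. The buffalo table was made separately and its libraries hold fewer junction reads, so no test was run between species. A further NDUFS1 junction, from 94911389 to 94919250 on chromosome 2, had 1 read in buffalo muscle 2. In cattle adipose tissue, NDUFS1 junctions from 94896494 to 94909744 and from 94901680 to 94912312 had 1 and 2 reads in a single library each, and both share an end with the main junction.

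**Figure D4:**
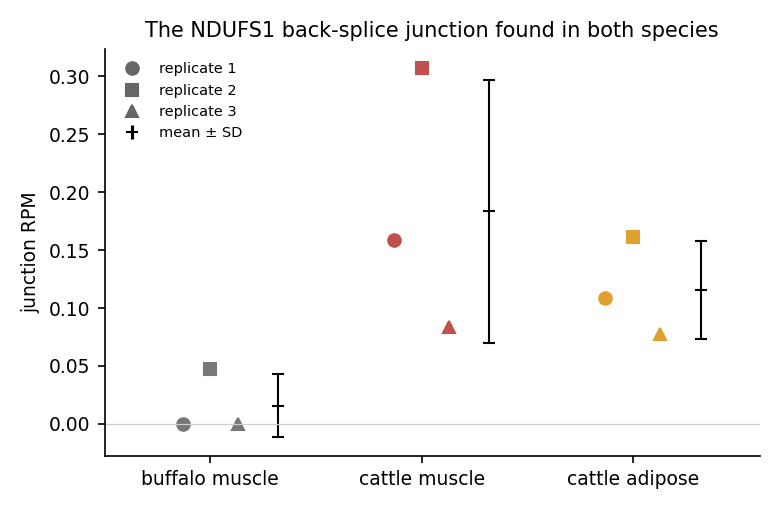
Junction RPM of the NDUFS1 circRNA shared by both species, for each library of the 3 groups, with mean and SD beside the points. Cattle muscle (0.0840 to 0.308) and cattle adipose tissue (0.0772 to 0.161) overlap, and 2 of the 3 buffalo libraries are at 0.

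The junctions of the ATP synthase genes had few reads. Each was seen in cattle muscle alone, as were 42.9% of the 16619 cattle junctions with fewer than 10 reads, while 39.2% of those were seen in cattle adipose tissue alone. An ATP5G2 circRNA that includes exon and intron sequence (chromosome 5, 26537333 to 26539255, minus strand) had 4 and 3 reads in cattle muscle 2 and 3, which is 0.0946 and 0.0840 RPM, and 0 in cattle muscle 1. In cattle adipose 1 to 3, 0 reads allow up to 0.0814, 0.0807 and 0.0772 RPM, so a difference was hardly detectable at this depth. An intronic junction of ATP5A1 (chromosome 24, 46302372 to 46302869) had 2 reads and an exonic junction of ATP5B (chromosome 5, 57120528 to 57121127) had 1 read, both in cattle muscle 1. None of the 3 passed the filter. With no filter, ATP5G2 had a limma difference of 0.08 on the log2(RPM + 1) scale, with an unadjusted p of 0.0444 and an adjusted p of 0.506. In that fit 803 of 18535 junctions had an unadjusted p under 0.05, ATP5G2 being the one such among the 6, and none of the 6 was called. ATP5G2 was named through the circRNA tables and had its reads in cattle muscle alone, so its p is no evidence of a difference.

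Summed over the 10 genes, cattle muscle 1 to 3 held 0.238, 0.402 and 0.168 junction RPM. Cattle adipose 1 to 3 held 0.136, 0.161 and 0.129. The tissues did not overlap, with means of 0.269 ± 0.120 and 0.142 ± 0.0171 (SD, n = 3), a difference of 0.128 RPM. This is a description with no test, since ATP5A1, ATP5B and ATP5G2 were named through the circRNA tables and had their reads in cattle muscle alone. Without cattle muscle 2 the difference was 0.0611 RPM. All junctions together came to 408, 642 and 613 RPM in the muscle and 327, 566 and 365 RPM in the adipose libraries. As a share of all junction reads, the 10 genes held 0.0583%, 0.0626% and 0.0274% in muscle and 0.0415%, 0.0285% and 0.0353% in adipose tissue, and these overlapped. Among the buffalo libraries, the second held 0.0628 RPM and the others 0. All junctions together came to 80.5, 96.1 and 74.5 RPM in buffalo muscle 1 to 3, below each cattle library. As a share of all junction reads, the 10 genes held 0.0653% in buffalo muscle 2, from 4 reads, which was above each cattle library.

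Among the other nuclear subunits of the list, NDUFA10, NDUFS8, NDUFV2 and UQCRC2 had junctions in cattle. The one with most reads, of UQCRC2 on chromosome 25 from 19862394 to 19864194, had 5, 3 and 1 reads in cattle muscle and 1, 0 and 3 in cattle adipose tissue and was not called (limma adjusted p = 0.661). An NDUFS8 junction (chromosome 29, 46205734 to 46206856) had 4 reads, all in cattle muscle 2. An NDUFV2 junction (chromosome 24, 41864050 to 41869134) had 2 and 1 reads in cattle muscle 2 and 3, and an intronic UQCRC2 junction (chromosome 25, 19867467 to 19870845) had 3 reads in cattle muscle 2.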

How the data were processed

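Values of 9 RNA sequencing libraries were used. The FPKM values deposited by the authors were made by trimming with Trim Galore, alignment of both species to UMD3.1 with STAR, and Cufflinks 2.2.1 and Cuffdiff, with replicates kept apart. For circRNAs, the authors deposited junction reads as RPM, and the caller is not given in the sources used here. A further 9 columns of buffalo adipose tissue were not used, nor were the lncRNA table and the values of the paper's tables.

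All circRNA values were whole multiples of 1 read (100%, tolerance 0.01 reads). Transcript names came from identifiers in the study's mRNA lists and in the circRNA tables, which named 7211 of 19917 transcripts. mRNAs were described as FPKM or log2(FPKM + 1), with no test. circRNAs with at least 2 reads in at least 3 of the 6 cattle libraries were compared by limma 3.58.1 with a mean trend on log2(RPM + 1), p-values being adjusted by Benjamini-Hochberg and called under 0.05. Alternatives were edgeR 4.0.16, DESeq2 1.42.0, other filters, pseudocounts and scalings, a replicate block and each library left out. The fit was tested on simulated data. A permutation test planned for the summed junction RPM is not reported, because some hosts had been found through the same tables. The labels name 3 animals per species. The genes named were the 10 members, the highest and lowest subunit of each complex, counterparts of members, the mitochondrially encoded subunits, junctions of the 10 genes with reads in at least 2 libraries of a group, and the 3 junctions with most reads among other subunits (4 are given, as 2 tied at 3 reads). The junctions of the 10 genes with fewer reads were added to account for every junction. The members and lists were chosen with earlier results of these data known.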

Additional observations from a re-analysis of the deposited data

How the results depend on the processing

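The median log2(FPKM + 1) of the 10 genes, 8.57, moved to 8.50 when libraries were rescaled to an equal sum. It stayed within its spread with a pseudocount of 0.1, with each library left out, and with median-ratio scaling, which was chosen after seeing the data. By gene, the rescaling moved 5 of the 10 levels by more than their SD. The median share of transcripts above a member, 1.20%, became 1.89% among transcripts with a mean FPKM of at least 1. The median of the 21 nuclear subunits could not change with summing over transcripts or with the filter. Each gene had 1 named transcript, above 1 FPKM in each library, and transcripts without a name were not summed.

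The count of circRNAs called between cattle muscle and adipose tissue, 65, became 27 with no filter, 120 with at least 5 reads, 163 with edgeR and TMM, 113 with edgeR without TMM and 115 with DESeq2, and lay between 20 and 87 with 1 library left out, the 20 without cattle muscle 2 or without cattle muscle 3. It was 41 without cattle muscle 1. With the replicate block it was 123. Deviations of same-numbered libraries from their group means correlated at 0.24, 0.17 and -0.02, and cattle muscle 3 correlated best with cattle adipose 2, so the numbers were not taken to pair the libraries. The NDUFS1 junction was not called in any of its 13 alternatives (adjusted p from 0.506 to 0.977). Its difference on the log2(RPM + 1) scale was 0.01 to 0.14 with 1 library left out, lowest without cattle muscle 2. The junction had 13 reads at most in a library, and counting error was not separated from the spread between animals. The summed RPM of the 10 genes was higher in muscle by 0.0611 to 0.178 with 1 library left out. Over all nuclear hosts, which include the 10 genes, it was higher by 0.277. As a share of all junction reads the difference was 0.0143 percentage points, and the tissues overlapped. ATP5A1, ATP5B and ATP5G2 were named through the circRNA tables and had their reads in cattle muscle alone. These settings are therefore no independent check of the direction.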
